A study of Mus musculus with 100 samples.

Results

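The comparison described here set intra-abdominal fat of mice labelled as adipocyte knockouts of Gps2 against fat labelled wild type, after a short high fat diet. It used 8 samples, 4 of each genotype label, out of 34 in the whole series. They were taken by their titles from the table of the high fat diet (HFD), whose name gives 4 weeks of diet, and their labels give an age of 11 weeks. Each sample was sequenced as 4 libraries that differed by about the sampling noise (chi-square per degree of freedom 1.03 to 1.10, against 5.29 or more between samples of a group), and these were averaged to 1 sample. The strain label reads Adipoq-Cre-Gps2flox/flox for all samples, wild type included, so that the genotype stands in the titles alone. The sources used here give neither the sex nor the number of animals, nor which genotype served as wild type (Cre-negative or without floxed alleles), and p-values therefore measure the spread between these samples.

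GPS2 is a small subunit of the NCoR/SMRT corepressor complex, which holds nuclear receptor target genes down through the deacetylase HDAC3. It is also known as an inhibitor of lysine-63 ubiquitin chains in insulin and inflammatory signalling, and as a protein that can leave mitochondria for the nucleus when they are stressed. Adipoq-Cre acts in fat cells, whereas vessels, immune cells, mesothelium and fat progenitors of the same tissue keep the gene. In bulk tissue, fewer cells of a type and less RNA per cell cannot be told apart.

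Recovered reads ranged from 41746943 to 63231798 per sample over the transcript chosen for each gene, the lowest sum covering 3 of 4 libraries. The targeted gene Gps2 lies on chromosome 11, 69913888 to 69916591, plus strand (GRCm38, ENSMUSG00000023170). Its full-length transcript stood at 384, 355, 392 and 421 normalised reads in wild type 1 to 4 and 330.5, 424, 417 and 389 in the samples labelled knockout 1 to 4 (log2 fold change 0.01 ± 0.10 SE), with full overlap. Which exons the deletion removes is unknown here, and reads of exons that a deleted allele keeps check nothing. A short transcript of 5 exons inside the gene (69914845 to 69915880) reached 42.9%, 44.7%, 39.4% and 35.5% of the full-length transcript in wild type and 35.0%, 34.6%, 36.6% and 34.6% in the samples labelled knockout (exact two-sided permutation p = 0.0571, where 0.0286 is the smallest possible). Wild type 4 lay within the knockout range, and every genotype named hereafter is the one the title states. Over the 2 last exons (69916041 to 69916556) the order was the opposite, with 45.1 ± 5.09% in wild type and 50.9 ± 1.51% in the samples labelled knockout (SD, n = 4 and 4; exact permutation p = 0.114).

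Fat-cell markers were abundant in all 8 samples, with Adipoq between 55745 and 98628 normalised reads. The sample labelled wild type 1 carried epithelial transcripts, with Epcam at 282 normalised reads against at most 2.92 in the other wild-type samples, and the sample labelled knockout 1 had the highest B cell markers. Counts are therefore also given without these samples.

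Of 13946 genes tested, 484 changed by limma with Benjamini-Hochberg adjustment (3.47%). In the samples labelled knockout 141 rose (1.01%) and 343 fell (2.46%), with a median log2 fold change over all genes of -0.09. After TMM scaling, which moved that median to 0.00, 217 rose and 310 fell, and 415 of those 527 were also among the 484. Groups did not overlap for 14% of all genes tested, and 164 of the 484 changed by 1 or more on the log2 scale. Without the samples labelled wild type 1 and knockout 1 together, 439 genes changed, 301 of them shared with the 484. A single sample moved the count by over 1.5 times in 7 of 8 cases: it was 1163 without wild type 1, 305 without wild type 3 and 289 without wild type 4. Without knockout 1, 2, 3 or 4 it was 181, 265, 146 or 126.

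**Figure D1:**
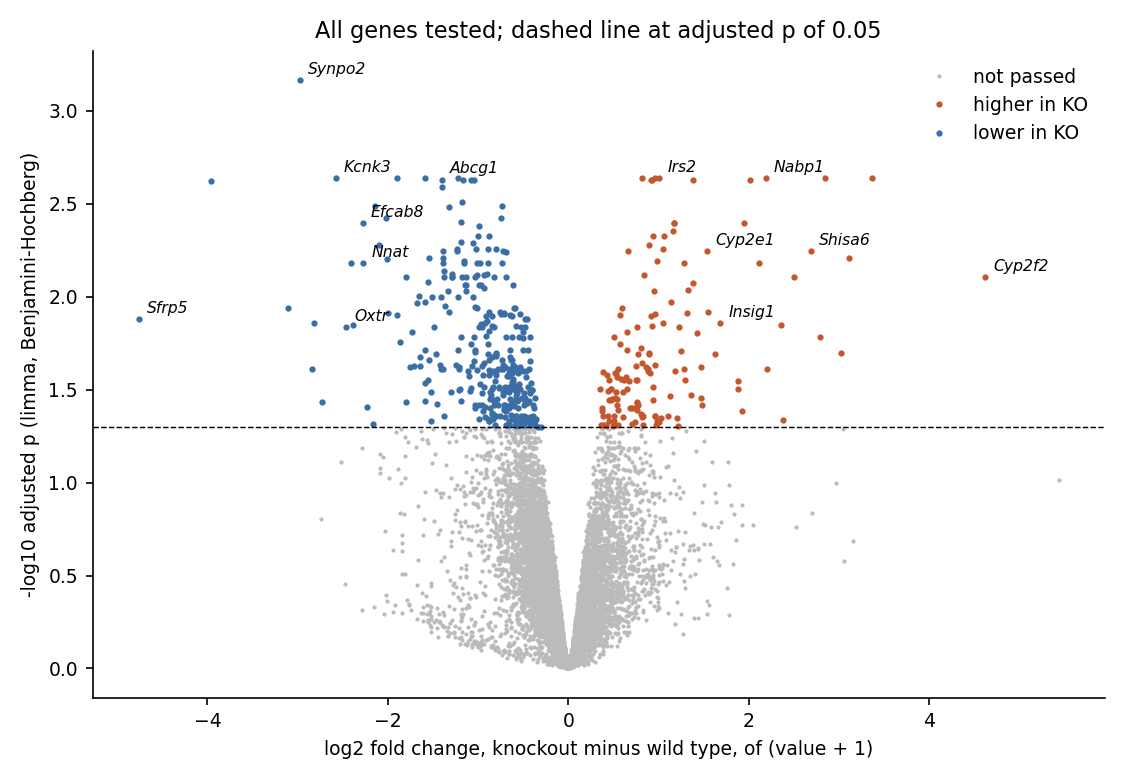
Each point is 1 of the 13946 genes tested, with the log2 fold change (knockout minus wild type) on the horizontal axis and -log10 of the adjusted p on the vertical axis. The 343 genes that fell (blue) outnumber the 141 that rose (orange), with Sfrp5 and Cyp2f2 farthest from 0 among genes that passed and Synpo2 at the smallest adjusted p.

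Promoter windows from RefSeq (GRCm38.p6), 250 bases before to 50 after the annotated start, are shown for a pair of genes that rose (Dio2 and Insig1) and a pair that fell (Synpo2 and Sfrp5), because short motifs of cAMP and sterol or nuclear receptor control were searched in all windows. Capitals mark every match, on either strand, to the cAMP element TGACGTCA, its core TGACG, the E-box CACGTG, a sterol element part TCACNCCAC, the nuclear receptor core AGGTCA, the TATA box TATAAA and the CCAAT box CCAAT. Matches to the core TGACG include those inside the full element, and a run of capitals can hold overlapping motifs.
Dio2, chr12:90738989-90739288, minus strand: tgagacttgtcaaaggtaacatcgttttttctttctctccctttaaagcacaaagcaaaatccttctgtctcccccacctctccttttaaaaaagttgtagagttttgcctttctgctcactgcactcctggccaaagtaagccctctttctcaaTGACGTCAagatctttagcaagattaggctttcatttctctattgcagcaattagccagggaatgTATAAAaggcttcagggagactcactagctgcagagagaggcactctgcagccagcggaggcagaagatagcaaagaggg
Insig1, chr5:28071162-28071461, plus strand: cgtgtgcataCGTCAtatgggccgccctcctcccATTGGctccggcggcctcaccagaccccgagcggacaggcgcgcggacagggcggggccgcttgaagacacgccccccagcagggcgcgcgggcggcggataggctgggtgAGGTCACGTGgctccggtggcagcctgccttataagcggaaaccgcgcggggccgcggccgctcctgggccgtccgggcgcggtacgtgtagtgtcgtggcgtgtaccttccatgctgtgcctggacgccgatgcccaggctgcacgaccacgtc
Synpo2, chr3:123236100-123236399, minus strand: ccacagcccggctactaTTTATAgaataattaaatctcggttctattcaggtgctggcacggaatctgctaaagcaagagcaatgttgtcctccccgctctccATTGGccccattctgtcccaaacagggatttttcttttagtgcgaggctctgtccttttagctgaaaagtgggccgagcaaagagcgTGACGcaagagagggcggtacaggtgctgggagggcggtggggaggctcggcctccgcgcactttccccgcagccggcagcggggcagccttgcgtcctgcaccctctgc
Sfrp5, chr19:42202203-42202502, minus strand: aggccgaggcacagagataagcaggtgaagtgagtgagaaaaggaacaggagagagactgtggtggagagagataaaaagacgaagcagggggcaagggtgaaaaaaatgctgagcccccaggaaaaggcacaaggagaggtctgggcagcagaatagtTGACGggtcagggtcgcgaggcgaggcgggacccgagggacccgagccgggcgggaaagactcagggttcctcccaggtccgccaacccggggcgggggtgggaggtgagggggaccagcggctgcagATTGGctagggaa

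Of 177 genes examined by name 129 have a window in the table. The Dio2 window holds the full cAMP element, 95 bases before the start, and a TATA box 30 bases before it. In that of Insig1 an AGGTCA and an E-box overlap, from 105 bases before the start. Synpo2 and Sfrp5 each hold 1 cAMP core, 60 and 91 bases before the start. Of all 32851 windows, 1.79% held the full cAMP element, 20.8% its core, 7.15% the E-box, 1.24% the sterol part, 16.3% AGGTCA, 13.6% the TATA box and 37.4% the CCAAT box. Of genes tested that had a window, 34.3% held the cAMP core in at least 1 window (3625 of 10581), against 27 of 98 that rose and 63 of 242 that fell. The full element was found in 2 that rose (2.04%, Dio2 among them) and 2 that fell (0.826%), against 3.44% of all tested. The TATA box was found in 16 that rose (16.3%) and 26 that fell (10.7%), against 8.95%. A match describes letters in the window and says nothing of binding.

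Leading genes had to pass the test, average at least 50 normalised reads and not overlap between the groups, so that the lack of overlap among them was fixed by the choice. Those that rose most came from several unrelated families, with Cyp2f2, Serpina3b, Shisa6, Pnpla5, Nabp1 and Prlr past 2 on the log2 scale. Cyp2f2, a cytochrome P450 known from the airways (chromosome 7, 27119909 to 27133660, plus strand), read 54.6, 129, 25.1 and 20.1 in wild type 1 to 4 and 2572, 374, 1188 and 1276 in knockout 1 to 4 (log2 fold change 4.62 ± 0.66 SE, adjusted p = 0.00785). Values are normalised reads in this order from here on. The knockout values spanned a wide range, with knockout 2 lowest, and wild type 2 was highest in its group.

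Prlr, the prolactin receptor (chromosome 15, 10177238 to 10349180, plus strand), read 236, 219, 213 and 154 against 1129, 576, 782 and 908 (2.02 ± 0.21, adjusted p = 0.00234). Nabp1, a single-stranded DNA-binding protein of the DNA damage response (chromosome 1, 51465862 to 51478425, minus strand), read 245, 278, 425 and 258 against 1097, 1867, 1132 and 1406 (2.19 ± 0.21, adjusted p = 0.00229). Nabp1 was highest in knockout 2, where Prlr was lowest of its group. Shisa6, a partner of AMPA-type glutamate receptors in neurons (chromosome 11, 66211725 to 66525964, minus strand), read 15.8, 19.96, 11.5 and 6.27 against 115, 55.8, 102 and 80.2 (2.69 ± 0.35, adjusted p = 0.00568). Pnpla5, a lipase of the patatin family (chromosome 15, 84112356 to 84123175, minus strand), read 6.89, 12.8, 29.4 and 14.8 against 102, 71.7, 88.9 and 78.7 (2.50 ± 0.36, adjusted p = 0.00785). These are low-level genes whose wild-type values lay at or under 29.4. Cyp2f2, Prlr, Nabp1, Shisa6 and Pnpla5 passed in all 8 fits that left out 1 sample.

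Cyp2e1, the ethanol-metabolising cytochrome P450 (chromosome 7, 140763739 to 140774987, plus strand), was among the most abundant transcripts that rose, from 40312, 27313, 36362 and 22299.6 to 75853, 98521, 98136 and 86343 (1.54 ± 0.20, adjusted p = 0.00568). Insig1, which retains the sterol sensor of SREBP in the endoplasmic reticulum and whose promoter is shown above, read 1384, 3301, 3094 and 1629.6 against 8185, 6015, 7356 and 6751 (1.68 ± 0.28, adjusted p = 0.0139). Its wild-type values fell into a lower pair (samples 1 and 4) and a higher pair. Gadd45g, a growth-arrest gene induced by stress, read 483, 399.6, 331 and 331 against 907, 984, 1153 and 952 (1.38 ± 0.14, adjusted p = 0.00234). Mogat2, an acyltransferase that makes diacylglycerol and is known from fat absorption in the gut, read 113, 309, 189 and 200.2 against 396, 749, 659 and 627 (1.63 ± 0.29, adjusted p = 0.0203). The Mogat2 ranges came close, with knockout 1 next to wild type 2. The calls of Insig1 and Mogat2 were each lost in 1 or more of the fits without knockout 1, 2, 3 or 4 or wild type 4 (adjusted p up to 0.074).

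The other leading risers had log2 fold changes between 1.18 and 2.79. They were Lypd1 (1.39 ± 0.20), a modulator of nicotinic receptors, the heparan sulfate sulfotransferase Hs3st3b1 (1.33 ± 0.20), Dtna (1.31 ± 0.21), a dystrophin-associated protein, and Nat8l (1.29 ± 0.24), which makes N-acetylaspartate from acetyl-CoA. Car1, a carbonic anhydrase (1.21 ± 0.28), Fam84a (1.20 ± 0.27), Adam23 (1.19 ± 0.23), a membrane protein of the ADAM family, and the glutathione transferase Gsta4 (1.18 ± 0.14) rose as well. Serpina3b (2.79 ± 0.48) belongs to a cluster of near-identical protease inhibitors that can share reads, and its value is uncertain. Of the 20 genes leading in this direction, 18 are named here and 10 passed in all 8 leave-one-out fits. The calls of Serpina3b, Dtna, Nat8l, Car1, Fam84a and Adam23 were each lost in 1 or more of the fits without knockout 1, 2, 3 or 4 or wild type 2, 3 or 4 (adjusted p up to 0.151).

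Among the genes that fell, a secreted Wnt antagonist, an actin-binding protein, an imprinted gene and several channels and receptors led. Sfrp5, which binds Wnt ligands outside the cell (chromosome 19, 42197971 to 42202252, minus strand), read 4567, 2425, 408 and 2744 against 21.6, 163, 88.95 and 67.6 (-4.76 ± 0.77, adjusted p = 0.0132). Wild type 3 lay far below the other wild-type samples. Synpo2 (chromosome 3, 123076519 to 123236149, minus strand), an actin-bundling protein of muscle Z-discs, read 2972, 2699, 1967 and 4183 against 337, 386, 343 and 382 (-2.98 ± 0.19, adjusted p = 0.000683, 95% confidence interval -3.41 to -2.54). The 4 knockout values differed by little, and the lowest wild-type value, in sample 3, lay far above them. Synpo2 had the smallest adjusted p of all genes.

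Kcnk3, a two-pore potassium channel that sets resting potential and is enriched in brown fat (chromosome 5, 30588170 to 30625271, plus strand), read 501, 815, 879 and 1101 against 147, 90.8, 152 and 149 (-2.58 ± 0.25, adjusted p = 0.00229). Oxtr, the oxytocin receptor (chromosome 6, 112473683 to 112489943, minus strand), read 2409, 1217, 547 and 696 against 159, 274, 157 and 173 (-2.46 ± 0.41, adjusted p = 0.0146). Wild type 1 was highest for Oxtr, and knockout 2 was highest in its group. Nnat, a paternally expressed membrane proteolipid (chromosome 2, 157560078 to 157562522, plus strand), read 30446, 19979, 33266 and 60759 against 6277, 9676, 5584 and 6674 (-2.27 ± 0.31, adjusted p = 0.00661). Efcab8, an EF-hand gene of little known function, read 138, 170.1, 208 and 232 against 22.8, 47.02, 52.4 and 33.4 (-2.28 ± 0.27, adjusted p = 0.00403). Oxtr lost its call without knockout 1, 3 or 4 (adjusted p up to 0.0595) and Sfrp5 without knockout 4 (adjusted p up to 0.0525). Synpo2, Kcnk3, Nnat and Efcab8 passed in all 8 leave-one-out fits.

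Further leading fallers included Adamtsl2, a microfibril-associated protein that restrains TGF-beta (225, 261, 246 and 339 against 61.4, 34.9, 87.8 and 74.2; -2.09 ± 0.26). Bcat1, the cytosolic branched-chain aminotransferase, read 162, 178, 137 and 223 against 27.6, 41.4, 58.00 and 45.1 (-2.02 ± 0.23), and Dusp9, a phosphatase of MAP kinases, 154, 104, 91.01 and 145 against 29.7, 33.8, 31.8 and 31.3 (-1.90 ± 0.19). The knockout values of Dusp9 all lay within 5 normalised reads of each other. Falls of -2.01 to -1.55 were also seen for the proteoglycan Ncan, the muscle-synapse adaptor Dok7, the potassium channels Kcnj15 and Kcnh2, the dynein Dnah3, the protease Htra3, the scaffold Ppfia3, the endoribonuclease Endou, the cytochrome oxidase isoform Cox7a1, the myosin light chain Myl4 and the matrix protein Thbs2. Of the 20 leading fallers 13 passed in all 8 leave-one-out fits. The calls of Dnah3, Kcnh2, Endou, Cox7a1 and Thbs2 were each lost in 1 or more of the fits without knockout 1, 2, 3 or 4 or wild type 2, 3 or 4 (adjusted p up to 0.119).

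**Figure D2:**
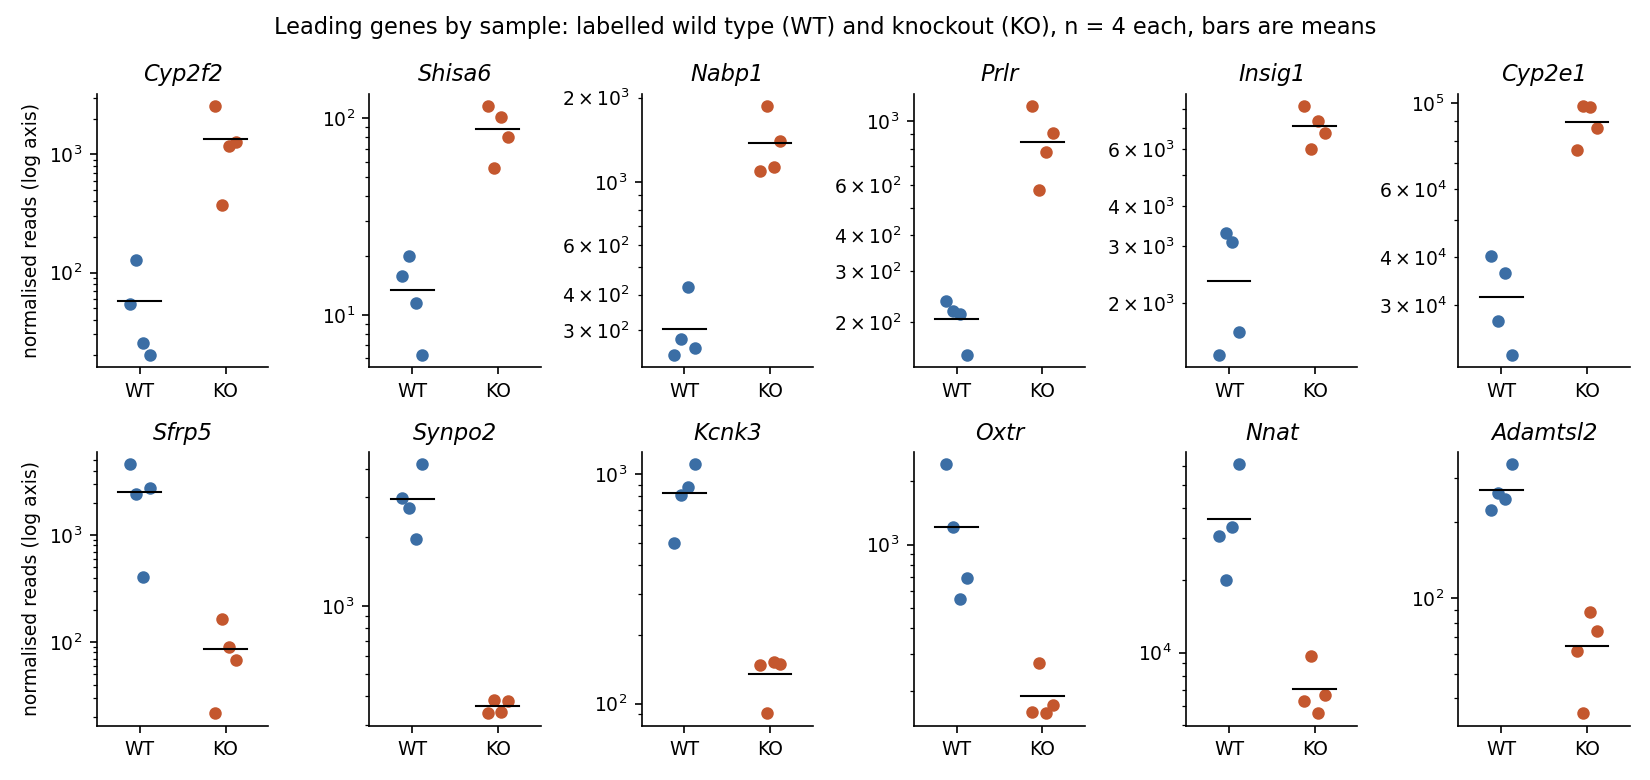
Normalised reads (log axis) of 12 leading genes in each sample labelled wild type (blue) or knockout (orange); bars mark the means of 4. The genes were chosen so that the groups do not overlap; the spread is narrow for Synpo2 in the knockout group and wide for Cyp2f2, where knockout 2 is lowest.

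The gene lists covered 1004 of the genes tested, of which 34 rose and 58 fell. Of 37 pathway lists 35 contained a passing gene. The lists were chosen with earlier results of these data known, so these counts are not independent of the data. In the plot of the lists the number that passed stands beside the median over all members, for comparison with 1.01% that rose and 2.46% that fell among all genes. Under the deposited scaling 5144 of all 13946 genes tested had higher and 8802 lower values. Counts of higher or lower members below are to be read beside that background.

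**Figure D3:**
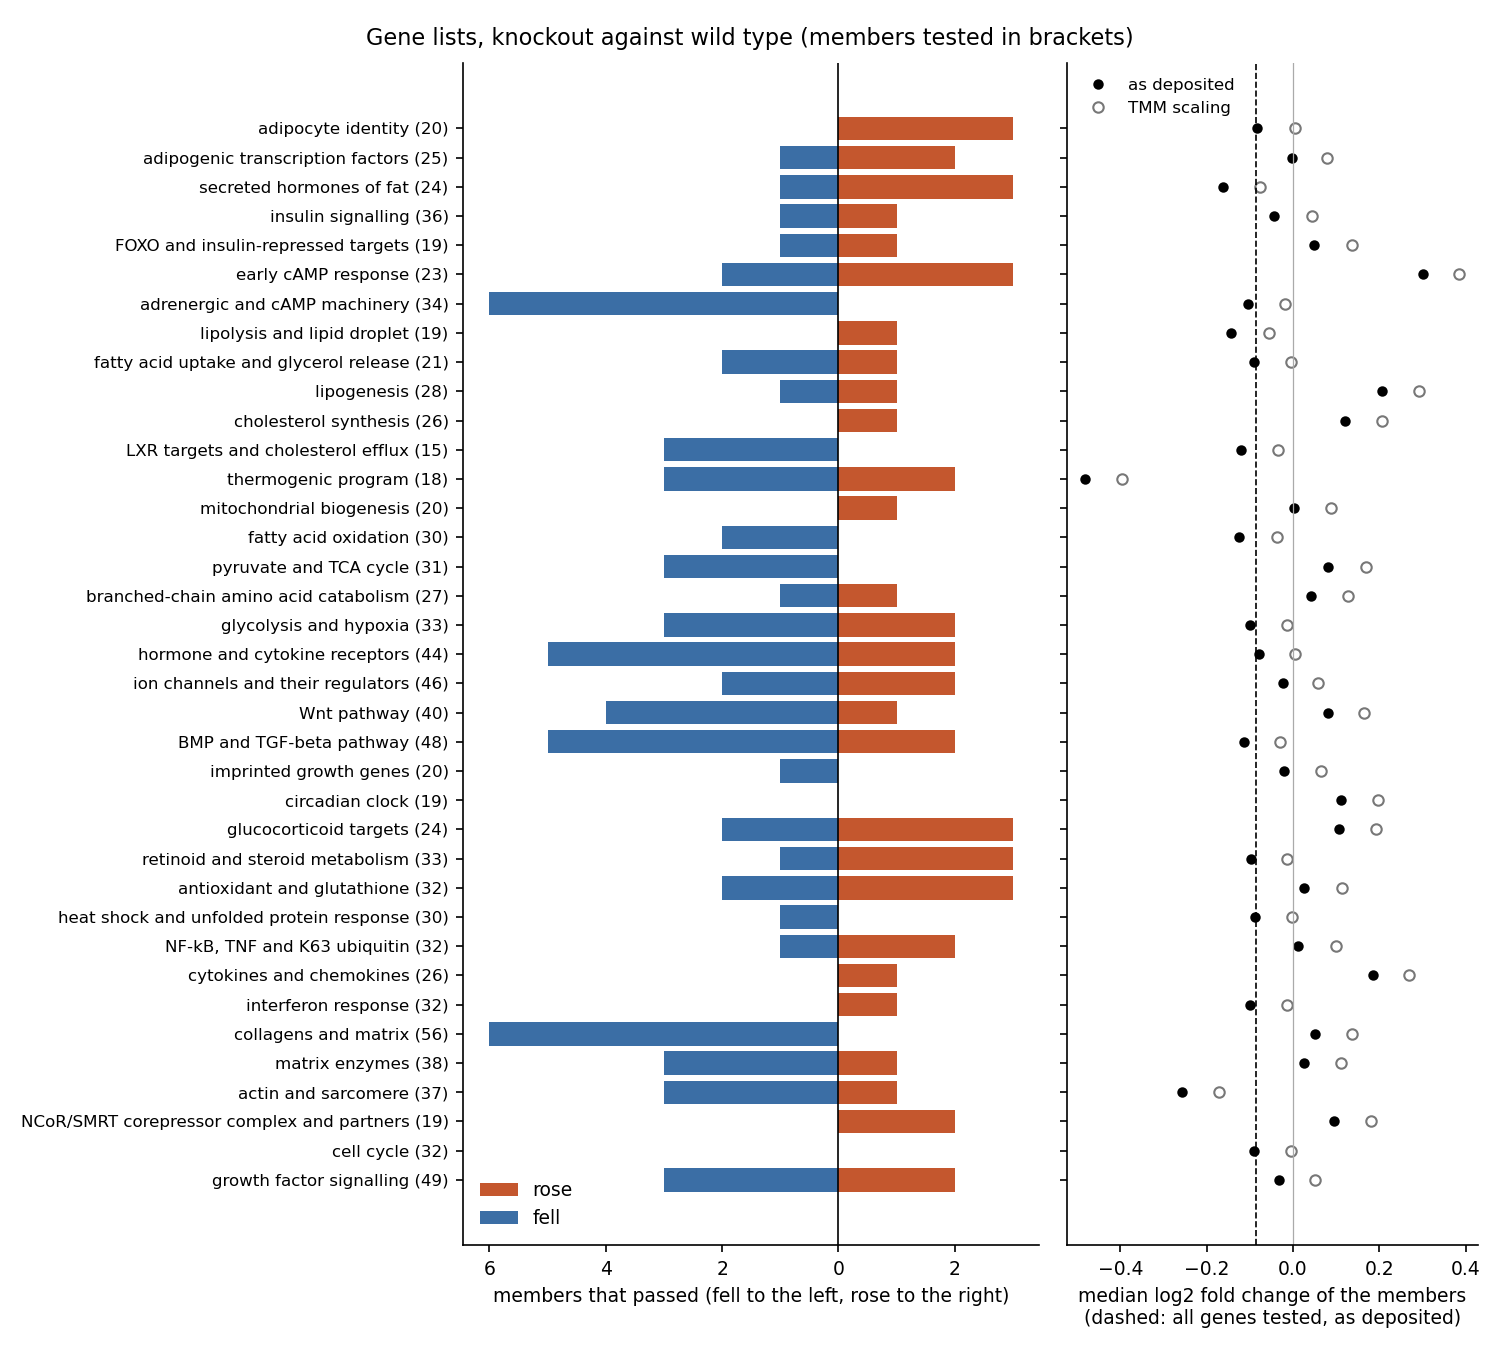
Left, members of each pathway list that rose (orange) or fell (blue) in the samples labelled knockout; right, the median log2 fold change of all tested members under the deposited scaling (filled) and TMM scaling (open), with the median of all genes dashed. Adrenergic and cAMP machinery and collagens and matrix have 6 members that fell and none that rose.

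Catecholamines raise cAMP in fat cells through beta receptors and adenylate cyclase, and phosphodiesterases remove it. In the list of adrenergic and cAMP machinery 0 of 34 genes rose and 6 fell, with a median of -0.10. Adcy5, a main adenylate cyclase of fat and heart, read 6374, 5156, 5666 and 5042 against 2529.6, 3391, 2567 and 2496 (-1.02 ± 0.13, adjusted p = 0.00552). The beta-1 receptor Adrb1 read 65.6, 72.3, 73.7 and 65.8 against 23.9, 44.1, 31.3 and 36.2 (-1.04 ± 0.19, adjusted p = 0.0223). The alpha-1 receptors Adra1d (-0.83 ± 0.14) and Adra1a (-0.62 ± 0.12) and the phosphodiesterases Pde4d (-1.18 ± 0.17) and Pde2a (-0.64 ± 0.14) fell as well, so that both the makers and the breakers of cAMP were among the lower genes. Reads of Pde2a cannot be told apart from a gene that covers 92.3% of its transcript. With TMM scaling or without wild type 1 and knockout 1, 5 members fell. The calls of Adra1d, Adrb1, Adra1a and Pde2a were each lost in 1 or more of the fits without knockout 1, 2, 3 or 4 or wild type 2, 3 or 4 (adjusted p up to 0.117).

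Genes induced early after cAMP had a median of 0.30 over 23 members, the highest of the pathway lists, and 3 rose and 2 fell. Dio2, the deiodinase that activates thyroid hormone, was low throughout, under the minimum mean of 10 in wild type, at 4.01, 16.3, 3.76 and 6.47 against 22.3, 24.2, 37.4 and 27.6 (1.93 ± 0.42, adjusted p = 0.0409). Irs2, an insulin receptor substrate, read 1014, 982, 1123 and 993 against 2359, 1972, 1861 and 2121 (1.01 ± 0.10, adjusted p = 0.00229). The Irs2 values were nearly equal within each group and about 2-fold apart between groups. Id1, a BMP target that inhibits helix-loop-helix factors, and Pde4d were the members that fell (-1.11 ± 0.21 for Id1). Dio2 and Id1 each lost their call in 1 or more of the fits without knockout 1, 2, 3 or 4 or wild type 3 or 4 (adjusted p up to 0.135).

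Of 36 insulin signalling genes 1 rose (Irs2) and 1 fell, Deptor, which binds and inhibits mTOR, from 1882, 2499, 2199 and 1904 to 848, 1097, 821 and 973 (-1.18 ± 0.13, adjusted p = 0.00311). Among targets that insulin represses through FOXO factors, Irs2 rose and Pdk4 fell, the other 17 of 19 not passing. Pdk4, the kinase that shuts off pyruvate dehydrogenase, read 1523, 1395, 1171 and 1232 against 777, 766, 789 and 854 (-0.73 ± 0.10, adjusted p = 0.00661). Within growth factor signalling 2 of 49 rose, Igf1 (0.45 ± 0.10) and the feedback inhibitor Spry4 (0.76 ± 0.16). In the same list 3 fell, the receptors Erbb2 (278, 221, 240.2 and 305 against 153, 133, 130.0 and 144; -0.89 ± 0.12) and Ntrk2 (-0.60 ± 0.12) and the ligand Hbegf (-0.88 ± 0.20). Irs2, Deptor, Pdk4 and Erbb2 passed in all 8 leave-one-out fits. Igf1, Spry4, Ntrk2 and Hbegf each lost their call in 1 or more of the fits without knockout 1, 2, 3 or 4 or wild type 2, 3 or 4 (adjusted p up to 0.13).

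Hormone receptors moved both ways, 2 of 44 rising and 5 falling. Beside Prlr, the glucocorticoid receptor Nr3c1 rose from 1553, 1747, 1517 and 1468 to 2221, 2023, 2029 and 2231 (0.44 ± 0.09, adjusted p = 0.0322). Beside Oxtr, the corticotropin receptor Mc2r (-0.91 ± 0.16), the glucagon receptor Gcgr (-1.25 ± 0.23), the short-chain fatty acid receptor Ffar2 (-0.80 ± 0.15) and Ramp2, a partner of adrenomedullin receptors (-0.80 ± 0.18), fell. Mc2r read 283, 375, 363 and 476 against 166, 199, 215 and 203, and Gcgr, at low level, 27.5, 35.2, 32.1 and 50.6 against 14.5, 13.8, 12.3 and 17.2. Mc2r and Gcgr raise cAMP, and Ffar2 lowers it. Without wild type 1 and knockout 1 together 1 receptor gene rose and 7 fell. The calls of Nr3c1, Mc2r, Gcgr and Ffar2 were each lost in 1 or more of the fits without knockout 1, 2, 3 or 4 or wild type 3 or 4 (adjusted p up to 0.127).

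The list of ion channels and their regulators, which does not hold the leading faller Kcnh2, had 2 of 46 members rising and 2 falling. Kcnk2, another two-pore potassium channel, rose from 134, 129, 138 and 122 to 191, 202, 189 and 212 (0.60 ± 0.09, adjusted p = 0.0115), in the opposite direction to Kcnk3. The inward rectifier Kcnj15 fell from 1057, 703, 405 and 544 to 193, 148, 212 and 182 (-1.80 ± 0.26), passing in all 8 leave-one-out fits. Kcnk2 lost its call without knockout 4 (adjusted p up to 0.0618).

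Of 20 fat-cell identity genes 3 rose and 0 fell. Pparg, the master regulator of fat cell formation and a partner of the corepressor complex, read 1939, 2781, 2660.2 and 2306 against 3510.0, 3635, 3846 and 3921 (0.63 ± 0.12, adjusted p = 0.0272). Acsl1, which activates fatty acids, read 18935, 27420.2, 26201 and 21010.3 against 46909, 35379, 47390.4 and 43806 (0.90 ± 0.16, adjusted p = 0.0202), and Cfd, the secreted complement factor adipsin, 159337, 77708, 137724 and 155863 against 242210.0, 251703, 258979 and 247701 (0.97 ± 0.22, adjusted p = 0.0488). The list's median was -0.08 and turned to 0.00 with TMM scaling. Of adipogenic transcription factors Gata2, which restrains fat cell formation, fell from 174, 164, 153 and 218 to 93.5, 84.5, 89.2 and 101 (-0.93 ± 0.13, adjusted p = 0.00766). Corepressor genes themselves included 2 of 19 that rose, Tbl1x (0.38 ± 0.09), a core subunit, and Nrip1 (0.65 ± 0.11), a nuclear receptor corepressor of fat, with Nrip1 at 1560.0, 1482, 1504 and 1186 against 2307, 2048, 2177 and 2466. The calls of Pparg, Acsl1, Cfd, Tbl1x and Nrip1 were each lost in 1 or more of the fits without knockout 1, 2, 3 or 4 or wild type 2, 3 or 4 (adjusted p up to 0.17). Gata2 passed in all 8 leave-one-out fits.

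Lipid genes gave few calls. Of 28 lipogenic genes Mogat2 rose and Acacb, the mitochondrial acetyl-CoA carboxylase that restrains fatty acid oxidation, fell from 3654, 2972, 4269.9 and 3001 to 2197, 2181, 1796 and 1755 (-0.80 ± 0.14, adjusted p = 0.02). The list's median was 0.21, and 21 of 28 members had higher values. Without wild type 1 and knockout 1 together this median was 0.08, and without wild type 1 alone it was 0.05. In cholesterol synthesis Insig1 alone passed among 26 genes, with a median of 0.12, or 0.03 without wild type 1 and knockout 1. In lipolysis and lipid droplet genes Pnpla5 alone passed among 19 (median -0.14). Both of those genes were named above among the leading risers. Fatty acid uptake and glycerol release had 1 of 21 rising (Acsl1) and 2 falling, the glycerol channel Aqp7 (-0.58 ± 0.13) and Apoc1 (-0.82 ± 0.19). Without wild type 1 and knockout 1 together, 0 members of that last list passed. The calls of Acacb, Aqp7 and Apoc1 were each lost in 1 or more of the fits without knockout 1, 2, 3 or 4 or wild type 2, 3 or 4 (adjusted p up to 0.154).

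LXR is a nuclear receptor that senses oxidised cholesterol and switches on cholesterol export. Of 15 LXR targets and efflux genes 0 rose and 3 fell. Abcg1, which exports cholesterol to lipoproteins, read 623, 659, 685 and 956 against 238, 285, 265 and 305 (-1.40 ± 0.14, adjusted p = 0.00234), and every knockout value lay far below the lowest wild-type value. The apolipoprotein genes Apoc2 (-1.18 ± 0.20) and Apoc1 also fell, but 88.9% of the Apoc2 transcript lies in exons of a neighbour, so its reads cannot be told apart from that gene. The list's median was -0.12, and Abcg1 passed in all 8 leave-one-out fits, which Apoc2 did not (adjusted p up to 0.0603, lost without knockout 1 or 4).

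Mitochondrial and thermogenic genes moved in both directions. Of 18 thermogenic genes 2 rose and 3 fell, and the median of -0.48 was the lowest of the pathway lists. It was -0.40 after TMM scaling. Without wild type 1 and knockout 1 together it was -0.28 and no longer the lowest, with actin and sarcomere genes at -0.31. Ppargc1b, a coactivator of mitochondrial genes, rose from 26.1, 23.4, 29.5 and 19.4 to 69.99, 54.3, 58.1 and 60.6 (1.28 ± 0.18, adjusted p = 0.00661) and was the only member to pass among 20 mitochondrial biogenesis genes. Cox7a1, the heart and brown-fat isoform of a cytochrome oxidase subunit, fell from 64.02, 127, 168 and 215 to 33.8, 51.2, 51.5 and 38.3 (-1.59 ± 0.34, adjusted p = 0.0363). Wild type 1 had the lowest Cox7a1 of its group, next to the highest knockout values. None of the 14 genes of the mitochondrial genome tested passed by limma, with a median of -0.01.

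Fatty acid oxidation had 0 of 30 members rising and 2 falling, among them Pdk4, with a median of -0.12 and 23 members lower. Among all genes the median was -0.09 and 8802 of 13946 were lower. After TMM scaling the median of the list was -0.04. In pyruvate and TCA cycle genes 0 of 31 rose and 3 fell, the kinases Pdk4 and Pdk3 (-0.62 ± 0.13) and the mitochondrial isocitrate dehydrogenase Idh2 (-0.58 ± 0.12). The kinases restrain pyruvate oxidation, whereas Idh2 is an enzyme of the cycle, and 23 of the 31 members had higher values (median 0.08). In branched-chain amino acid catabolism 1 of 27 rose, Aldh6a1 (0.46 ± 0.09), of the valine pathway, and Bcat1 fell. Glycolysis and hypoxia genes included the stress gene Ddit4, which inhibits mTORC1 (681, 674, 617 and 651 against 1246, 1305, 1377 and 1197; 0.96 ± 0.08, adjusted p = 0.00229), and Pfkfb3 (0.54 ± 0.11) among 2 of 33 that rose. Pfkp (-0.66 ± 0.14), Ldhb (-0.48 ± 0.10) and P4ha2 (-0.60 ± 0.13) were the 3 that fell. Ddit4 passed in all 8 leave-one-out fits. Pdk3, Idh2, Aldh6a1, Pfkfb3, Pfkp, Ldhb and P4ha2 each lost their call in 1 or more of the fits without knockout 1, 2, 3 or 4 or wild type 2, 3 or 4 (adjusted p up to 0.127).

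Wnt signals hold back fat cell formation, and of 40 Wnt pathway genes 1 rose and 4 fell, with a median of 0.08. Beside Sfrp5, Nkd1, a feedback inhibitor induced by beta-catenin, read 414, 619, 487 and 576 against 294, 207, 212 and 224 (-1.16 ± 0.15, adjusted p = 0.00645). The ligand Wnt11 (-1.08 ± 0.19) and the cyclin Ccnd1 (-0.70 ± 0.14) fell too, while Myc rose from 146, 99.1, 105 and 103 to 276, 229, 252 and 261 (1.17 ± 0.14, adjusted p = 0.00403). Ccnd1 and Myc, both known targets of Wnt signals and of growth factors, thus changed in opposite directions. Wnt11 and Ccnd1 each lost their call in 1 or more of the fits without knockout 1, 2, 3 or 4 or wild type 2, 3 or 4 (adjusted p up to 0.104).

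The BMP and TGF-beta list had 2 of 48 members rising and 5 falling. Fstl3, a secreted binder of activins, read 297, 299, 202 and 451 against 107, 98.5, 127 and 117 (-1.41 ± 0.21, adjusted p = 0.00997), and Nog, the BMP antagonist noggin, 80.7, 119, 72.4 and 99.6 against 22.2, 52.2, 32.2 and 29.6 (-1.46 ± 0.26, adjusted p = 0.0203). Bmp3, an inhibitory ligand, fell (-0.91 ± 0.15), as did Adamtsl2 and Id1 named above. Bmp5 (1.30 ± 0.26) was low and rose, from at most 10.8 normalised reads in wild type, where its mean was under the minimum of 10. Of the Fstl3 and Bmp5 transcripts 59.2% and 49.1% lie in exons of other genes, whose reads cannot be told apart. In imprinted growth genes Nnat was the 1 of 20 that passed. Nog, Bmp3 and Bmp5 each lost their call in 1 or more of the fits without knockout 1, 3 or 4 or wild type 3 or 4 (adjusted p up to 0.128).

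In the matrix, 0 of 56 genes of collagens and other structural proteins rose and 6 fell, against a list median of 0.05, with 33 members higher and 23 lower. Hspg2, the basement membrane proteoglycan perlecan, read 13755, 15511, 15692 and 15449.7 against 9090.3, 7238, 7567 and 8719 (-0.89 ± 0.11, adjusted p = 0.00552). Prelp, a proteoglycan that anchors basement membranes, read 23848, 21537, 16346 and 20535 against 6533, 11814, 11818 and 12012 (-0.99 ± 0.21). Col18a1 (-0.63 ± 0.12), Col6a1 (-0.57 ± 0.12), Thbs2 and Ncan were the others, of which Col18a1 is a basement membrane collagen as well. Among 38 matrix enzymes 1 rose and 3 fell, the collagen-modifying hydroxylases Plod1 (-0.54 ± 0.10) and P4ha2 and Adamtsl2. With TMM scaling, or without wild type 1 and knockout 1, 3 of the 56 structural genes fell. Hspg2 passed in all 8 leave-one-out fits. Prelp, Col18a1, Col6a1 and Plod1 each lost their call in 1 or more of the fits without knockout 1, 2, 3 or 4 or wild type 2, 3 or 4 (adjusted p up to 0.114).

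The actin and sarcomere list had lower values for 31 of 37 members, against 8802 of all 13946 genes. Its median was -0.26, and -0.17 after TMM scaling, with 1 member rising and 3 falling. Beside Synpo2, the intermediate filament Des read 717, 566, 646 and 707 against 461, 315, 352 and 317 (-0.88 ± 0.14, adjusted p = 0.0121), and the actin-binding Nexn fell (-0.81 ± 0.17). The Z-disc gene Ldb3 went the other way, from 91.1, 59.4, 88.1 and 92.6 to 249, 143, 142 and 137 (0.98 ± 0.22, adjusted p = 0.0465), with knockout 1 highest. These genes are also expressed by smooth muscle, whose summed markers ranged from 11578 to 15407 normalised reads in wild type and from 8427 to 14477 in the samples labelled knockout. Their part in the result was not tested. Des, Nexn and Ldb3 each lost their call in 1 or more of the fits without knockout 1, 2, 3 or 4 or wild type 2, 3 or 4 (adjusted p up to 0.118).

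Enzymes that handle foreign compounds and peroxides changed in both directions. Of 33 retinoid and steroid metabolism genes 3 rose (Cyp2f2, Cyp2e1 and the aldehyde oxidase Aox1, 0.68 ± 0.15) and Cyp2d22 fell (-0.67 ± 0.14). Of 32 antioxidant genes 3 rose and 2 fell. Gsta3, a glutathione transferase, read 2877, 3413, 3492 and 3138 against 5513, 7856, 7315 and 6517 (1.07 ± 0.13, adjusted p = 0.00469), and Gsta4 284, 352, 436 and 434 against 793, 875, 858 and 835 (adjusted p = 0.00403). Gclc, the first enzyme of glutathione synthesis, also rose (0.52 ± 0.11). The secreted enzymes Gpx3 (12906, 6915, 13053 and 15724 against 4958, 5573, 4691 and 4927, -1.21 ± 0.23, adjusted p = 0.0239) and Sod3 (-0.66 ± 0.14) fell. Both act outside the cell, whereas the 3 enzymes that rose act inside it, and the other 27 members did not pass. Without wild type 1 and knockout 1 together 3 antioxidant genes rose and 0 fell, so the calls of Gpx3 and Sod3 were lost. Gsta3 and Gsta4 passed in all 8 leave-one-out fits. Aox1, Cyp2d22, Gclc, Gpx3 and Sod3 each lost their call in 1 or more of the fits without knockout 1, 2, 3 or 4 or wild type 2, 3 or 4 (adjusted p up to 0.127).

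Inflammatory genes gave few calls. Tnfaip3, the deubiquitinase that ends NF-kB signals, read 209, 208, 139.5 and 177 against 387, 359, 402 and 362 (1.06 ± 0.13, adjusted p = 0.00552), with no overlap. It was 1 of 2 genes of the NF-kB, TNF and ubiquitin list that rose, beside Tbl1x, among 32, and Tnfaip2 fell (-0.64 ± 0.11). Cxcl9, a chemokine induced by interferon-gamma, read 413, 496, 557 and 669 against 958, 877, 1122 and 1023 (0.91 ± 0.15, adjusted p = 0.0126) and was the 1 gene that passed of 26 cytokines and chemokines and of 32 interferon genes. Glucocorticoid targets had 3 of 24 rising (Ddit4, Gadd45g and Nr3c1) and 2 falling (Pdk4 and Map3k6, -0.78 ± 0.15). Hspb1 (-0.92 ± 0.15), a small heat shock protein, was the 1 of 30 that passed in the heat shock list. Tnfaip2, Cxcl9, Map3k6 and Hspb1 each lost their call in 1 or more of the fits without knockout 1, 2, 3 or 4 or wild type 2, 3 or 4 (adjusted p up to 0.0748).

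No cell cycle gene passed by limma among 32, and no clock gene among 19. The inhibitor Cdkn2c read 1914, 3158, 3451 and 2722 against 3532, 4516, 4594 and 4029 (0.59 ± 0.18, adjusted p = 0.112) and Cdkn1a 1469, 2954, 2515 and 2972 against 1019.8, 2186, 1456 and 1476 (-0.69 ± 0.27, adjusted p = 0.191). The clock repressor Nr1d1 read 2997, 2701, 3438 and 3489 against 2161, 2066, 2315 and 2514 (-0.48 ± 0.11, adjusted p = 0.0538), just short of the threshold, and Tef -0.35 ± 0.20 (adjusted p = 0.336). Groups did not overlap for Cdkn2c and Nr1d1 and overlapped for Cdkn1a and Tef.

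Markers of other cell types were summed over each list. Lymphocyte, macrophage and endothelial sums overlapped between the groups, and few single genes passed. All 11 T and NK cell markers tested and all 11 B cell markers tested had higher values in the samples labelled knockout. Their medians were 0.64 and 0.95, and 0.47 and 0.42 without wild type 1 and knockout 1 together. A marker was tested at a mean of 10 or more over all 8 samples, which high knockout values alone can bring about. These counts and medians are therefore not independent of that filter. T and NK cell markers summed to 136 to 292 normalised reads in wild type and 264 to 335 in the samples labelled knockout, and Cd4 passed (8.17, 8.74, 5.06 and 4.49 against 25.8, 14.7, 22.5 and 17.5; 1.49 ± 0.32, adjusted p = 0.0385). Cd4 lay under the minimum mean of 10 in wild type and was tested only through its knockout values. B cell markers ranged from 85.1 to 248 and from 155 to 892, with knockout 1 at the top and the other knockout samples, at 155 to 199, within the wild-type range. None of the 11 B cell markers tested passed by limma. Cd79a, part of the B cell receptor, read 21.2, 11.6, 12.9 and 33.2 against 115, 21.5, 28.99 and 22.4, with overlapping groups. Macrophage sums overlapped (15152 to 27975 against 23271 to 24025). Of 20 macrophage markers 15 had higher and 5 lower values, with a median of 0.22. Mertk, a receptor for dying cells, was the 1 that passed, and it fell (694, 679, 499 and 602 against 421, 328, 373 and 452, -0.65 ± 0.14, adjusted p = 0.0353). With TMM scaling 0 of the 20 passed. Without wild type 1 and knockout 1 together 1 rose and 0 fell, and without wild type 1 alone 5 rose and 1 fell.

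Endothelial markers summed to 25112 to 42186 in wild type and 22171 to 28037 in the samples labelled knockout. Lower values were found for 16 of 18, against 8802 of all 13946 genes (median -0.27, and -0.18 after TMM scaling). Sox18, a transcription factor of vessels, was the 1 that passed, from 942, 1116, 1433 and 1354 to 439, 422, 493 and 561 (-1.33 ± 0.15, adjusted p = 0.00329). For the vessel genes Pecam1 and Cdh5 the groups overlapped, at 3059 to 4391 against 2907 to 3980 for Pecam1. Mesothelial markers summed to 3209 to 8479 against 3533 to 11925, and 0 of 15 passed. Stromal markers did not overlap, at 231016 to 352634 against 439161 to 539457, a sum carried by Gsn, an actin-severing protein also made by fat cells (293197, 185192, 220335 and 224171 against 373490.0, 505551, 425405 and 410569; 0.91 ± 0.18, adjusted p = 0.0258). Among other stromal genes the groups overlapped for Col3a1 and Dcn, and Dpt was lower without overlap and did not pass (6218, 6648, 6137 and 7063 against 3629, 3589, 5725 and 5227; -0.55 ± 0.17, adjusted p = 0.109). Of the 16 members 11 had higher and 5 lower values. Mertk, Cd4 and Gsn each lost their call in 1 or more of the fits without knockout 1, 2, 3 or 4 or wild type 2, 3 or 4 (adjusted p up to 0.136). Epithelial sums were 962 in wild type 1 against 32.5 to 167 in the other 7 samples, with Krt5, Krt15 and Krt23 under 1 in all. No epididymis or testis marker reached a mean of 10 over all samples. Their sums were nevertheless 34.6 in wild type 1 and 37.7 in knockout 4, against 2.01 to 10.1 in the others. Crisp1, of that list, read 10.2 in wild type 1, 27.4 in knockout 4 and 0 in the others. The part of cell makeup in the changes above was not tested.

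**Figure D4:**
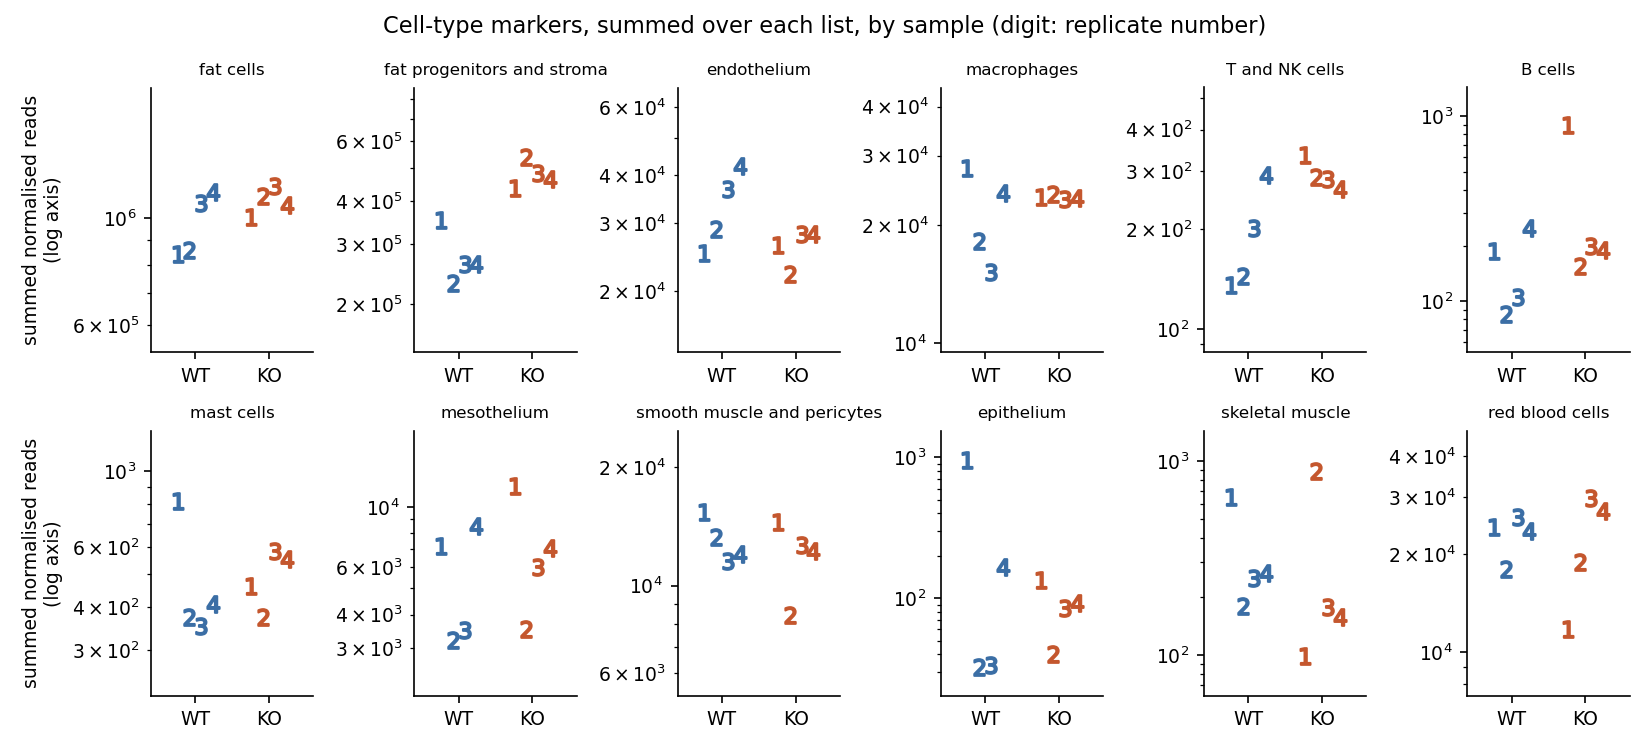
Normalised reads (log axis) summed over the markers of 12 cell types in each sample; digits are replicate numbers, blue wild type and orange knockout. Wild type 1 stands apart for epithelium and mast cells, knockout 1 for B cells and knockout 2 for skeletal muscle, while fat-cell sums overlap between the groups.

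Single transcripts were examined because a gene's value above is that of 1 transcript, and a read can be listed under every transcript it overlaps. Of the changed genes, 293 had at least 2 transcripts with a mean of 50 or more, and in 269 of them the log2 fold changes of these transcripts lay within 0.5. Transcripts on both sides of 0 were found for 5 genes. The widest spread among the 293 was that of Rad50, a DNA repair gene, whose full transcript fell from 983 ± 114 to 420 ± 47.6 normalised reads (SD, n = 4 and 4; -1.22). A transcript of 12 exons, against 25 in the full one, read 54.4 ± 14.7 and 63.5 ± 5.56 (0.26). In Synpo2 the transcript of 4 exons fell most (-2.98) and one of 2 exons least (-1.61), from 105 ± 23.1 to 33.6 ± 5.92. For Deptor the longest transcript fell from 2121 ± 290 to 935 ± 127, but one that ends before the last part of the gene read 76.4 ± 34.5 and 62.3 ± 10.5 (-0.16). All 7 transcripts of Prlr that were compared had higher values, by 2.02 to 2.37 on the log2 scale.

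The same genotype contrast was set against 3 other tables of the series, with the difference tested as an interaction in limma over all genes of both tables. These tables were normalised apart and differ from the present samples in more than 1 respect. One held intra-abdominal fat on chow at 19 weeks (3 and 3 samples), another intra-abdominal fat at 19 weeks whose table name gives 12 weeks of high fat diet (3 and 3), and the third inguinal fat at 8 weeks labelled BA (4 and 4), where the series' design names beta-adrenergic stimulation and no agent or dose. Diet, age, depot and stimulation cannot be told apart between them.

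Against chow 0 of 13749 genes differed (0%; smallest adjusted p = 0.151, 2383 genes at an unadjusted p under 0.05), and without wild type 1 of the short diet 16 did. Against the long diet 0 of 13942 differed (0%; smallest adjusted p = 0.0700, 2384 genes at an unadjusted p under 0.05), with 2 after TMM scaling, 2 without wild type 1 and 8 without wild type 2. For the leading genes given next, which are picked examples and not a count, the effect on chow had the same sign. Synpo2 stood at -3.40 ± 0.67 there and -2.98 ± 0.19 on the short diet, Sfrp5 at -5.40 ± 0.98 and -4.76 ± 0.77, and Nnat at -2.44 ± 0.72 and -2.27 ± 0.31. Cyp2e1 stood at 1.66 ± 0.59 against 1.54 ± 0.20 and Shisa6 at 2.07 ± 0.38 against 2.69 ± 0.35. The wide errors of 3 samples a group limit what these differences can show.

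Values of smallest p were, against chow, Acat2 (-0.03 on the short diet and 1.74 ± 0.23 on chow; difference -1.77 ± 0.28), Hnrnpa0 (difference -0.90 ± 0.15) and Dap (difference -1.27 ± 0.21). Against the long diet they were Pkp4, a desmosome-related protein (-0.71 ± 0.11 and 0.55 ± 0.14; difference -1.26 ± 0.18), the chromatin remodelling subunit Smarcd3 (difference -1.43 ± 0.22) and the linker histone H1f0 (difference -0.85 ± 0.14). None of these passed, the smallest adjusted p being 0.0700. Nnat, at 0.08 ± 0.51 on the long diet, and Adrb1, at 0.19 ± 0.46, were not lower there, and neither difference from the short diet passed (adjusted p = 0.127 and 0.221).

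Against inguinal fat 46 of 12080 genes differed (0.381%), 5 with a higher and 41 with a lower effect in intra-abdominal fat, and 34 of them were among the genes changed on the short diet. After TMM scaling the split was 12 and 28. Synpo2 was -2.98 ± 0.19 against -0.14 ± 0.22 (difference -2.83 ± 0.30, adjusted p = 0.000776), Kcnk3 -2.58 ± 0.25 against -0.08 ± 0.20 (difference -2.50 ± 0.33, adjusted p = 0.00475) and Sox18 -1.33 ± 0.15 against 0.40 ± 0.16 (difference -1.73 ± 0.23, adjusted p = 0.00475). In the other direction Tnfaip3 was 1.06 ± 0.13 against -0.22 ± 0.15 (difference 1.27 ± 0.20, adjusted p = 0.0174), with Myc (difference 1.21 ± 0.21), Gsta4 (1.28 ± 0.26) and the formin Daam1 (0.81 ± 0.17) beside it.

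Opposite signs were found for Tmem86a, an enzyme of plasmalogen turnover (-0.40 ± 0.15 and 1.05 ± 0.13), Ttll7, a tubulin-modifying enzyme (-0.82 ± 0.16 and 0.94 ± 0.19), and Myrip, an organelle-transport protein (-0.72 ± 0.16 and 0.77 ± 0.17). Sfrp5 (difference -4.78 ± 0.96), Oxtr (-3.20 ± 0.66), Bcat1 (-2.21 ± 0.40) and Abcg1 (-1.32 ± 0.24) also passed. For Cyp2f2, Shisa6, Prlr and Adrb1 the effects had the same sign in both tables, at 1.01 ± 0.53, 1.83 ± 0.33, 1.42 ± 0.31 and -1.45 ± 0.37 in inguinal fat, and no difference passed (adjusted p = 0.106, 0.463, 0.517 and 0.695). The count of 46 rested on the samples used, being 94 without wild type 1, 17 without wild type 4, and 11, 20, 21 or 7 without knockout 1, 2, 3 or 4.

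**Figure D5:**
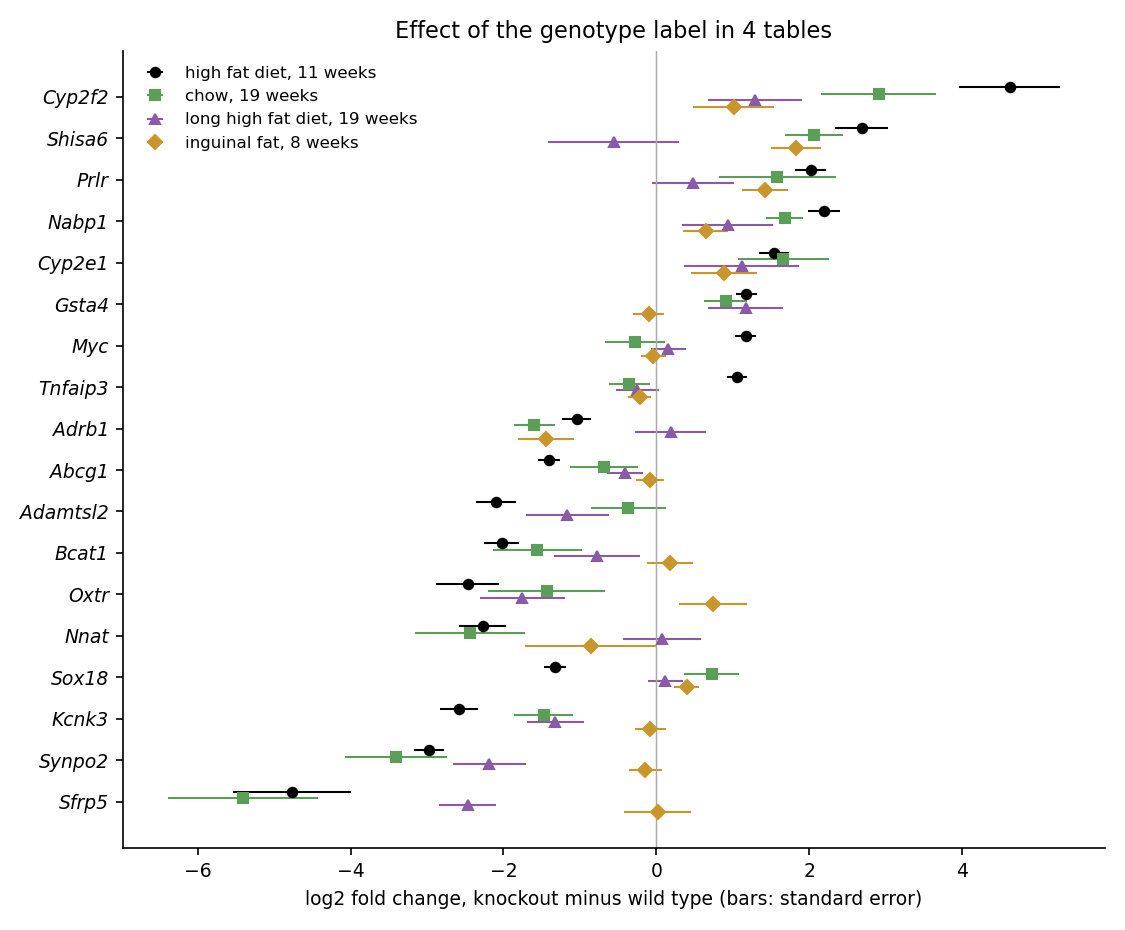
Log2 fold change (knockout minus wild type) with its standard error for 18 genes in intra-abdominal fat on the short high fat diet (black), chow (green), the long high fat diet (purple) and in inguinal fat (yellow). Synpo2 and Sfrp5 lie below 0 in the first 3 and near 0 in inguinal fat, where Adamtsl2 was too low to be tested.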

How the data were processed

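RNA of mouse fat was read from strand-specific poly(A) libraries, per the labels' protocols. For each Ensembl transcript the authors deposited a signal which, judged from its values, is a read count divided by a library size factor. Per the submitters' processing notes, which give no roles, the tools were bcl2fastq (2.17), STAR (2.4.0k), SAMtools, DESeq (1.8.3) and HTSeq (0.5.3), and the build was GRCm38.p4. The sources used here do not say whether counting was stranded. Across the 32 libraries 100% of values were whole multiples of 1 read within 0.01 of a read; in 30 they were taken as recovered reads. Of 90117 transcripts 631 (0.329% of values) had no gene in GENCODE M21, which gave symbols and positions on GRCm38. For each of 27196 genes the transcript with the highest mean of the gene's own type was taken; for 5.88% over 50% of it overlapped exons of another gene.

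Limma 3.58.1 (R 4.3.3, trend and robust moderation) took log2(value + 1), for genes averaging at least 10, with only genotype as a term, Benjamini-Hochberg adjustment and a threshold of 0.05. Fold changes on this scale understate those of low genes. Interactions used 1 fit over both tables. The members and gene lists were chosen with earlier results of these data known. Named are Gps2, the 20 leading genes in each direction (mean of 50 or more, no overlap, no predicted, pseudogene or receptor-segment genes), up to 6 passing members of a list, or 2 by level where none passed, and for each interaction up to 6 of either sign, or 3 by smallest p where none passed. Also named are 30 changed genes outside the lists, picked by smallest p after their values were seen. For a few single genes no result is reported here. Alternatives were TMM, pseudocounts of 0.5 and 5, plain moderation, a minimum of 50 or none, a replicate block, each leading number alone, other transcript choices, a log2 size of 1, samples left out, and edgeR 4.0.16 and DESeq2 1.42.0 on recovered reads. Scripts were tested on simulated data. Intervals cover 95%.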

Additional observations from a re-analysis of the deposited data

Results flagged for a closer look

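A sample stood apart in its group of 4 for 10 of 114 groups examined, when its gap to the nearest sample, as a share of the group's range, passed Dixon's 95% critical value. Chance alone gives about 1 in 20. The sample labelled wild type 1 stood apart for Serpina3b (ratio 0.945; 135, 76.2, 74.6 and 77.9 in wild type), mast cell markers (0.881; 820 normalised reads) and epithelial markers (0.855; 962). Wild type 4 did so for Htra3 (0.836). The sample labelled knockout 2 stood apart for Kcnk3 (0.922; 147, 90.8, 152 and 149 in knockout), Oxtr (0.868), Htra3 (0.841) and skeletal muscle markers (0.901; 890.4 normalised reads). Knockout 1 did so for Fam84a (0.860) and B cell markers (0.940; 892).

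The genotype effect differed from that in inguinal fat, by the interaction in limma with Benjamini-Hochberg adjustment, for 46 genes, of which 10 are given here, chosen as those of smallest p in either direction with a mean of 50 or more in both tables. The difference (intra-abdominal minus inguinal) was 1.27 for Tnfaip3, 1.21 for Myc, 1.28 for Gsta4 and 0.81 for Daam1. It was -2.83 for Synpo2, -1.73 for Sox18, -2.50 for Kcnk3, -1.44 for Tmem86a, -1.76 for Ttll7 and -1.49 for Myrip. Age, depot and stimulation differ between these tables as well, and their part was not tested.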

How the results depend on the processing

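All 148 named genes that had passed kept their direction in every alternative in which they were tested, 137 passing after TMM scaling, 135 with edgeR, 148 with DESeq2, 112 without wild type 1 and knockout 1, and 70 in all 8 leave-one-out fits. The 148 include 30 genes outside the lists that were picked by smallest p after their values were seen. All 30 are among the 70, so these shares are no estimate of stability for changed genes at large. The count of 484 changed genes became 1452 with DESeq2 and 164 at an absolute log2 fold change of 1 or more. That count of changed genes ranged from 126 to 1163 with 1 sample left out. On simulated data with known changes, 92 of 282 DESeq2 calls were false, against 9 of 183 with limma and 7 of 181 with edgeR. The counts with DESeq2 are therefore less strict than the others. A replicate block gave 268 genes, 242 of them shared. Same-numbered samples did not deviate together (correlations 0.0562, -0.0612, -0.2214 and -0.4233), and not every sample correlated best with its own number. So few correlations cannot decide whether same-numbered samples were paired, and the labels do not say. The main fit treated them as unpaired. Genes differing from chow ranged from 0 to 16 with 1 sample left out, from the long diet from 0 to 8 (2 with TMM scaling), and from inguinal fat from 7 to 94. The cause of these shifts was not tested.

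Signs turned only for named genes that had not passed. With leading number 1, 2 or 3 alone Gps2 gave -0.0011, -0.023 and -0.0094. Kit gave 0.068 with TMM scaling, 0.055 with leading number 1, 0.22 with edgeR and 0.22 with DESeq2, and Acat2 0.057 with TMM scaling, 0.058 with summed transcripts, 0.039 with edgeR and 0.040 with DESeq2. Tpsb2 gave -0.19 and -0.086 with leading number 1 and 3 alone, and Lyve1 -0.065 with number 1. With edgeR Acta1 gave 0.23 and Hbb-bs 0.012, which was 0.014 with DESeq2, and without wild type 1 and knockout 1 they gave 0.40 and 0.14. With 1 sample left out the ranges were -0.037 to 0.083 for Gps2, -0.23 to 0.37 for Kit, -0.20 to 0.29 for Tpsb2, -0.19 to 0.20 for Lyve1, -0.29 to 1.17 for Krt14, -0.30 to 0.12 for Hbb-bs and -0.18 to 0.092 for Acat2. Genes near the minimum mean of 10 rest on few reads.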

Other observations

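Outside the gene lists 388 genes changed, of which 105 rose and 283 fell. The 30 with the smallest p and a mean of 50 or more were picked after their values were seen, and all 30 passed in the 8 leave-one-out fits. Genes of this set that were lower in the samples labelled knockout included Mfge8, which tags dying cells for uptake (-1.24 ± 0.16), Lbp, which binds bacterial lipopolysaccharide (-1.19 ± 0.14), Itih5, a hyaluronan-associated protein (-1.04 ± 0.11), and Adcyap1r1, the receptor for the neuropeptide PACAP (-1.54 ± 0.20). Lower as well were the gap junction gene Gjc1 (-0.88 ± 0.11), the amino acid transporter Slc7a8 (-1.08 ± 0.11), the transcriptional repressor Hic1 (-0.69 ± 0.09) and the small heat shock gene Hspb2 (-1.16 ± 0.16). Others that fell were Sardh, of choline breakdown (-0.80 ± 0.10), Acsf2, which activates fatty acids (-0.72 ± 0.09), and Slc25a42, a coenzyme A carrier (-0.99 ± 0.12).

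Among the genes that rose were Pla2g15, the lysosomal phospholipase (0.92 ± 0.09), Pepd, which cleaves proline dipeptides (1.17 ± 0.14), the kinase Tnk2 (0.89 ± 0.11) and the transcription cofactor Irf2bp2 (0.93 ± 0.10). Pla2g15 went from 946, 837, 976 and 841 normalised reads to 1785, 1828, 1647 and 1545. Of the Pepd transcripts the full one rose by 1.17, while a pair that covers the start of the gene gave 0.21 and 0.17. Adcyap1r1 read 1513, 1153, 869.7 and 899 against 391, 270.4, 442 and 406.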
